A study of Caenorhabditis elegans with 21 samples.

Results

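Levels of 9 *Caenorhabditis elegans* genes for histone methylation enzymes and other germline chromatin factors were followed, namely *mes-2*, *mes-3*, *mes-6*, *mes-4*, *mrg-1*, *met-1*, *met-2*, *set-2* and *spr-5*. They were chosen by name for their known roles, but with earlier results of these data known. All 9 were found, among 46891 genes in the embryo tables and among 18887 genes in the RNA immunoprecipitation (RIP) files. Embryos came in 3 genotypes, the double mutant fzy-1(D433N);oma-1(zu405), oma-1(zu405) and wild type N2, with 2 libraries of early embryos each in the tables (the labels list 3 samples per genotype), bleached from young adults grown at 25 °C. The allele zu405 changes 1 amino acid of OMA-1, an RNA-binding protein of oocytes, and makes the protein persist in embryos, and *fzy-1* encodes the Cdc20 activator of the anaphase-promoting complex. RIP was done with beads that bind GFP on lysates of 100000 young adults per sample, also grown at 25 °C. The 3 strains were fzy-1;oma-1ts-gfp (here the *fzy-1* strain), oma-1ts-gfp and oma-1-gfp. All 3 carry GFP fused to OMA-1 at its own locus, oma-1ts-gfp and the *fzy-1* strain with the amino acid change of zu405. Each strain has 2 RIP and 2 input (total RNA) libraries. No untagged strain was analysed here, so RNA that binds the beads without OMA-1 was not measured. Nothing in the labels ties libraries to separate cultures, so the p-values measure the spread between these libraries, which may be technical.

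The germline of the worm passes chromatin states to the embryo through maternal proteins and mRNAs. MES-2, MES-3 and MES-6 form the worm Polycomb repressive complex, which methylates H3K27, and MES-4 keeps H3K36 methylation on genes that were expressed in the parental germline. Loss of these maternal factors leaves offspring whose germ cells die, hence the name maternal-effect sterile. MRG-1 is a chromodomain protein related to human MRG15, MET-1 a second H3K36 methyltransferase, MET-2 an H3K9 methyltransferase, SET-2 the H3K4 methyltransferase of the COMPASS complex, and SPR-5 a demethylase of H3K4.

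The 9 genes lie on 5 chromosomes of the WBcel235 annotation, matched by gene identifier. *mes-2* (WBGene00003220) is at II:14383973-14388454, *mes-3* (WBGene00003221) at I:4996835-5003202, *mes-6* (WBGene00003224) at IV:8511284-8513469 and *mes-4* (WBGene00003222) at V:13433050-13437545. *mrg-1* (WBGene00003406) is at III:12871029-12874656, *met-2* (WBGene00019883) at III:8375300-8380848 and *set-2* (WBGene00004782) at III:4922427-4930204. *met-1* (WBGene00016603) is at I:4254197-4264699 and *spr-5* (WBGene00005010) at I:13438058-13450218. In the germline class column of the deposited files, 7 of the 9 are Gender Neutral, a class that holds 23.9% of all genes, *spr-5* is Oogenic, a class of 6.96%, and *mes-6* has no class. *mes-6* shares 380 exon bases, 22.7% of its exon length, with C09G4.4 on the same strand, so reads from that stretch may be counted for either gene.

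The embryo libraries hold between 3599426 and 18815357 counts. The 2 libraries of the double mutant, in columns named D1 and D3, stand apart from each other. Over all genes their log2 difference had a median size of 1.17, and the share of ribosomal RNA was 5.98% in D1 but 0.0525% in D3. Summed over 8 oocyte markers, all of them detected in each library, the normalized level was 656 CPM in D1 and 103 CPM in D3, 1108 and 1250 CPM in oma-1(zu405), and 92.4 and 93.5 CPM in N2. The 8 germline markers gave 1155 CPM in D1 and 565 CPM in D3, 2758 and 3226 CPM in oma-1(zu405), and 370 and 384 CPM in N2. CPM here are counts scaled to a common library size after correction with the trimmed mean of M-values (TMM). Scaled by total counts instead, *puf-5* and *puf-11*, higher than in N2, gave 185 and 83.1 of the 296 oocyte marker CPM in D1. On that scale *rme-2*, *cbd-1*, *egg-2* and *egg-3* were lower in D1 than in both N2 libraries. *egg-1* lay between those, and *perm-4* had only 1 to 5 counts per library. The germline markers summed to 520 CPM in D1 by total counts, below N2 at 640 and 669 CPM. The 8 muscle markers summed by total counts to 3447 and 3927 CPM in N2 and 1608 and 2058 CPM in oma-1(zu405). In D1 they had 545 CPM and in D3 3632 CPM. By TMM the muscle sums were not lower in oma-1(zu405), at 2294 and 3039 CPM, against 1990 and 2251 CPM in N2. These marker levels move with the embryo results below, and their part in them was not tested. In whole embryos, fewer cells of a type and less RNA per cell cannot be told apart.

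In oma-1(zu405) embryos, *mrg-1* stood far above N2, *mes-2* and *spr-5* were higher, and *mes-3*, *met-2*, *met-1* and *set-2* were lower, on the TMM scale. The 3 Polycomb genes thus moved apart on this scale, with *mes-2* up, *mes-3* down and *mes-6* not past the threshold. By edgeR's quasi-likelihood test with Benjamini-Hochberg adjustment over 12520 genes, 3 of the 9 were higher and 4 lower, where 34.8% of all genes were higher and 42.4% lower. These shares are close to the background. Values of the 2 genotypes did not overlap for the same 7 genes, as for 40.5% of all genes in the higher and 48.1% in the lower direction. Only *mrg-1* also passed a log2 fold change of 2, as 11.6% of all genes did upwards. In 1 fit of all 6 embryo libraries, which takes in the spread between D1 and D3, 0 members passed, with 4 at an unadjusted p under 0.05. Of the 12520 genes, 0 passed in that fit, with 5371 at an unadjusted p under 0.05.

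The direction of several members depended on the scale. On the TMM scale the typical gene lay below 0, with a median of -0.24. Scaled by total counts instead, it was -1.51, and then 1 member (*mrg-1*) was higher and 7 were lower, against 15.6% and 70.3% of all genes. *mes-2* then had a log2 fold change of -0.11, which did not pass, *mes-4* of -1.15 and *spr-5* of -0.78. *mes-6*, which did not pass on the TMM scale, was lower by total counts, at -1.26. A change of scaling shifts all genes nearly alike, so distances from the median of all genes had to stay nearly the same. By TMM and by total counts, *mrg-1* was 2.69 and 2.70 above it, *mes-2* 1.39 and 1.40 above it, and *mes-3* at -0.93 and -0.92.

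**Figure D1:**
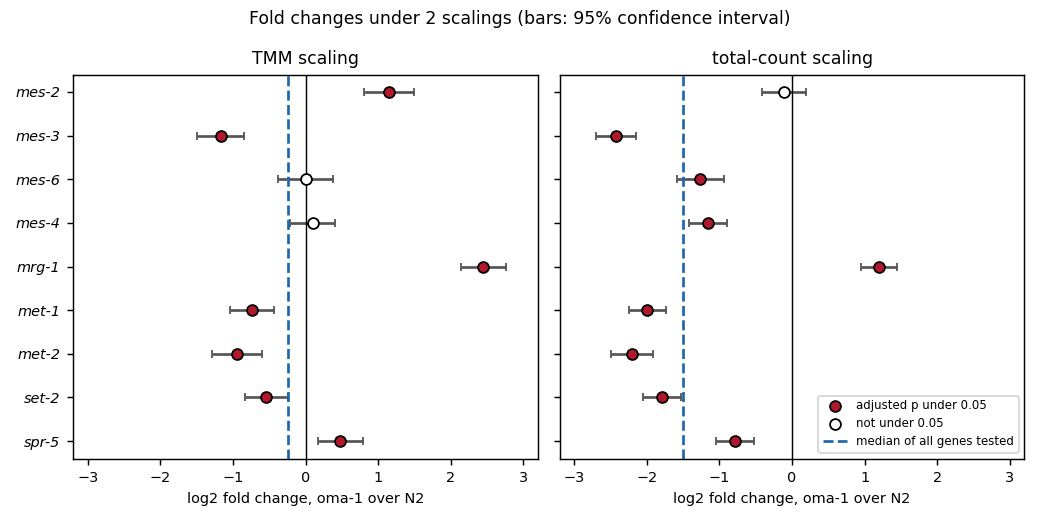
Log2 fold change of each gene in oma-1(zu405) over N2 embryos (x axis), by TMM on the left and by total counts on the right, with bars for the 95% confidence interval and a dashed line for the median of all genes tested. Filled points have an adjusted p under 0.05, and all points move left together on the right, where the median lies at -1.51, with *mrg-1* alone above 0.

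*mrg-1* had 790 and 786 normalized CPM in oma-1(zu405), against 141 and 131 CPM in N2. The 2 libraries of a genotype lay close together and the genotypes did not overlap, with a log2 fold change of 2.45 (SE 0.15, adjusted p = 1.33e-14 by edgeR). *mrg-1* was the most abundant of the 9 per exon length in every embryo library. It also rose on the total-count scale, by a log2 fold change of 1.198.

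Among the Polycomb genes, *mes-2*, which encodes the catalytic subunit, had 63.8 and 79.7 CPM in oma-1(zu405), against 31.5 and 28.5 CPM in N2, a log2 fold change of 1.153 (SE 0.17, adjusted p = 5.07e-07 by edgeR). *mes-3* had 53.7 and 50.1 CPM in oma-1(zu405), against 113 and 112 CPM in N2. Its log2 fold change was -1.17 (SE 0.16, adjusted p = 1.41e-07 by edgeR). *mes-6*, related to the Polycomb protein EED, had 35.96 and 37.1 CPM in oma-1(zu405), against 36.8 and 32.5 CPM in N2, with overlapping groups and a 95% confidence interval of the log2 fold change between -0.38 and 0.38. A count ratio within a library needs no scale between libraries. The ratio of *mes-2* to *mes-3* counts was 1.19 and 1.59 in oma-1(zu405), against 0.280 and 0.255 in N2, and that of *mrg-1* to *mes-3* was 14.7 and 15.7, against 1.25 and 1.178. The balance among these mRNAs thus differed between the genotypes on any scaling of the libraries.

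On the TMM scale, 3 methyltransferase genes outside Polycomb were lower and *mes-4* did not pass. *met-1* had 116 and 121 CPM in oma-1(zu405), against 177 and 197 CPM in N2 (log2 fold change -0.74, SE 0.15, edgeR adjusted p = 5.32e-05). *met-2* had 39.1 and 37.1 CPM, against 72.4 and 68.3 CPM in N2 (-0.94, SE 0.17, adjusted p = 1.12e-05). *set-2* had 104.1 and 114 CPM, against 146 and 153 CPM in N2 (-0.54, SE 0.15, adjusted p = 0.00153). None of these 3 groups overlapped N2. The H3K36 methyltransferase gene *mes-4* had 109 and 128 CPM, against 97.6 and 110 CPM in N2, an overlap, with a log2 fold change of 0.10 (95% confidence interval -0.21 to 0.40). The demethylase gene *spr-5* had 94.9 and 102 CPM, against 68.3 and 65.2 CPM in N2 (0.48, SE 0.15, adjusted p = 0.00591), higher on the TMM scale and lower by total counts. The ratio of *met-1* to *mes-4* counts, the 2 H3K36 enzymes, was 1.07 and 0.942 in oma-1(zu405) and 1.82 and 1.79 in N2.

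**Figure D2:**
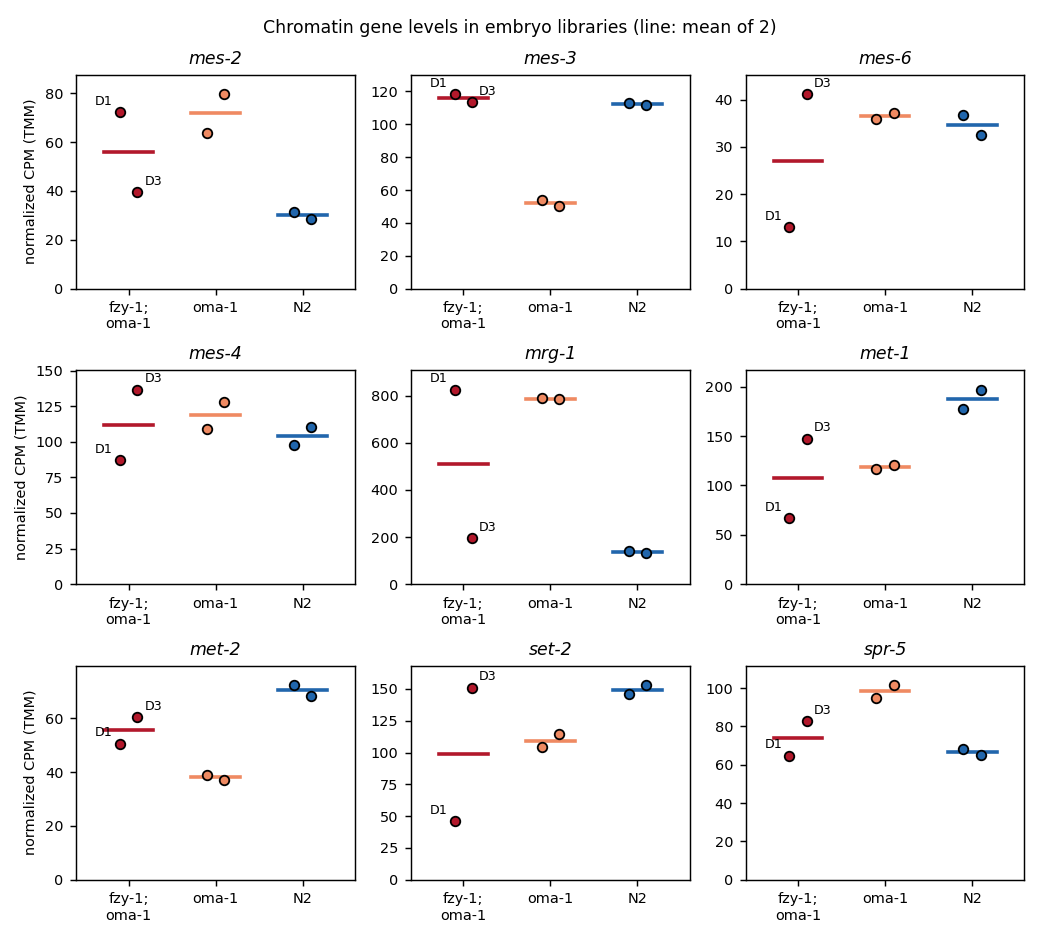
Normalized CPM (y axis, from 0) of the 9 genes in each embryo library, with the double mutant, oma-1(zu405) and N2 along the x axis, a point per library and a line for the mean of 2. For *mrg-1*, D1 lies at 827 beside oma-1(zu405) and D3 at 194 near N2, while *mes-3* of both double mutant libraries lies near N2 on this scale.

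In double mutant embryos, no member passed against N2 or against oma-1(zu405) by edgeR, where 0% of all genes passed in either direction. At an unadjusted p under 0.05, 0 members were found against N2 and 1 against oma-1(zu405), which was *mes-3*. DESeq2 called 0 members in both comparisons, with 1 (*mrg-1*) and 0 at an unadjusted p under 0.05. Of all genes, 506 of 12684 and 860 of 10477 had an unadjusted p under 0.05 by edgeR, and 1613 and 1075 by DESeq2. On the TMM scale, the values against N2 did not overlap for *mes-2*, *mes-3* and *mrg-1* (higher, as for 23.6% of all genes) and for *met-1* and *met-2* (lower, 33.0%), and against oma-1(zu405) for *mes-3* and *met-2* (higher, 17.9%) and *spr-5* (lower, 27.9%). The 2 libraries of the double mutant differ so much that the spread is wide. *mrg-1* had 827 CPM in D1 and 194 CPM in D3, against 790 and 786 CPM in oma-1(zu405), and against 141 and 131 CPM in N2. On this scale D1 had the level of oma-1(zu405) and D3 one nearer to N2. By total counts *mrg-1* had 372 CPM in D1 and 300.4 CPM in D3, against 554 and 533 CPM in oma-1(zu405), and 244 and 229 CPM in N2, so that both libraries lay between the other genotypes. *mes-6* had 12.95 CPM in D1, from 21 counts, and 41.2 CPM in D3, against 35.96 and 37.1 CPM in oma-1(zu405). *set-2* had 46.3 CPM in D1 and 151 CPM in D3, against 104.1 and 114 CPM in oma-1(zu405). *mes-4*, with 87.0 CPM in D1 and 137 CPM in D3, and *met-1*, with 67.2 and 147 CPM, also lay on both sides of oma-1(zu405). *spr-5*, with 64.8 CPM in D1 and 82.7 CPM in D3, lay below both oma-1(zu405) libraries by TMM, but by total counts it had 29.2 CPM in D1 and 127.9 CPM in D3, against 66.6 and 68.8 CPM, so that D3 lay above. *mes-2* had 72.2 CPM in D1 and 39.6 CPM in D3, both above N2 by TMM, but by total counts it had 32.5 CPM in D1 and 61.3 CPM in D3, against 54.6 and 49.7 CPM in N2, so that D1 lay below. Between D1 and D3 the members differed by log2 values on the TMM scale from -1.71 (*set-2*) to 2.09 (*mrg-1*), while between the 2 N2 libraries they differed by -0.18 to 0.18.

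*mes-3* was the member on which the double mutant libraries differed least on the TMM scale. It had 118 CPM in D1 and 113 CPM in D3, against 53.7 and 50.1 CPM in oma-1(zu405), and 113 and 112 CPM in N2. Both double mutant libraries lay above oma-1(zu405) and close to N2 on this scale, with a log2 fold change over oma-1(zu405) of 1.32 (SE 0.48, adjusted p = 0.585 by edgeR). Computed from total counts and exon length, *mes-3* had 17.1 RPKM in D1 and 56.2 RPKM in D3, against 12.1 and 10.8 RPKM in oma-1(zu405), and 62.4 and 62.3 RPKM in N2, so that D1 lay below N2. The ratio of *mes-3* to *mes-6* counts, free of any scale, was 9.14 in D1 and 2.75 in D3, against 1.49 and 1.35 in oma-1(zu405), and 3.07 and 3.43 in N2. In D1 it rests on 21 *mes-6* counts. The ratio of *mrg-1* to *mes-3* counts was 6.98 in D1 and 1.71 in D3, against 14.7 and 15.7 in oma-1(zu405), and 1.25 and 1.178 in N2. That of *mes-2* to *mes-3* was 0.609 in D1 and 0.349 in D3, against 1.19 and 1.59 in oma-1(zu405), and 0.280 and 0.255 in N2. By these ratios both libraries lay between the other genotypes. The log2 fold change of *mes-3* over oma-1(zu405) was 1.32 without D1 and 1.40 without D3, each with an adjusted p under 0.05 in a fit where the lone double mutant library is assumed to vary like the other genotype. *met-2* had 50.6 and 60.6 CPM in D1 and D3, against 39.1 and 37.1 CPM in oma-1(zu405), and passed without D1 (0.86) and without D3 (0.61) on the TMM scale. By total counts *met-2* had 22.8 CPM in D1 and 93.7 CPM in D3, against 27.4 and 25.1 CPM in oma-1(zu405), so that D1 lay below. Leaving out 1 library decides the other calls. Against N2, 4 members were higher and 1 lower without D1, where 14.1% and 13.7% of all genes were, and 2 higher and 4 lower without D3, where 30.2% and 40.3% were. Against oma-1(zu405), the counts were 4 and 2 without D1 (30.5% and 32.4% of all genes), and 2 and 3 without D3 (31% and 30.3%). *met-1* and *set-2* were higher than in oma-1(zu405) without D1 (0.51 and 0.67) and lower without D3 (-0.60 and -1.02).

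In young adults, most of the 9 mRNAs were lower in RIP than in input in all 3 strains, and none was higher. The values are RPKM (read counts scaled by transcript length and by library size), tested with limma on log2(RPKM + 1), so that fold changes of low genes are understated. In the *fzy-1* strain 5 of the 9 members tested were lower, against 28.2% of all genes tested, and 11.2% of all genes were higher. In oma-1ts-gfp 6 of the 8 tested were lower, against 39.0% (15.4% higher), and in oma-1-gfp 6 of 8, against 27.7% (11.8% higher). The typical gene also lay below its input, with a median of -0.41 in the *fzy-1* strain, -0.34 in oma-1ts-gfp and -0.37 in oma-1-gfp. The members' own medians were -0.80, -0.86 and -0.92. When each library is centred on its median gene, 0, 4 and 2 members were lower, against 12.2%, 23.6% and 15.3% of all genes, with 16.9%, 27.8% and 17.9% higher, so much of the count rests on the scale. With input replicate 1 or 2 left out, 0 members passed in the *fzy-1* strain, where 7.77% and 6.73% of all genes were lower, and 0 in oma-1-gfp, where 8.48% and 7.96% were. The medians of the members tested stayed as large, at -0.91 and -0.95 in the *fzy-1* strain and -0.88 and -0.95 in oma-1-gfp. With RIP replicate 1 or 2 of the *fzy-1* strain left out, 3 members were lower, where 26.7% and 23.8% of all genes were. RIP and input values did not overlap for 7 members in each strain, as for 51.7%, 54.2% and 51.2% of all genes in that direction.

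**Figure D3:**
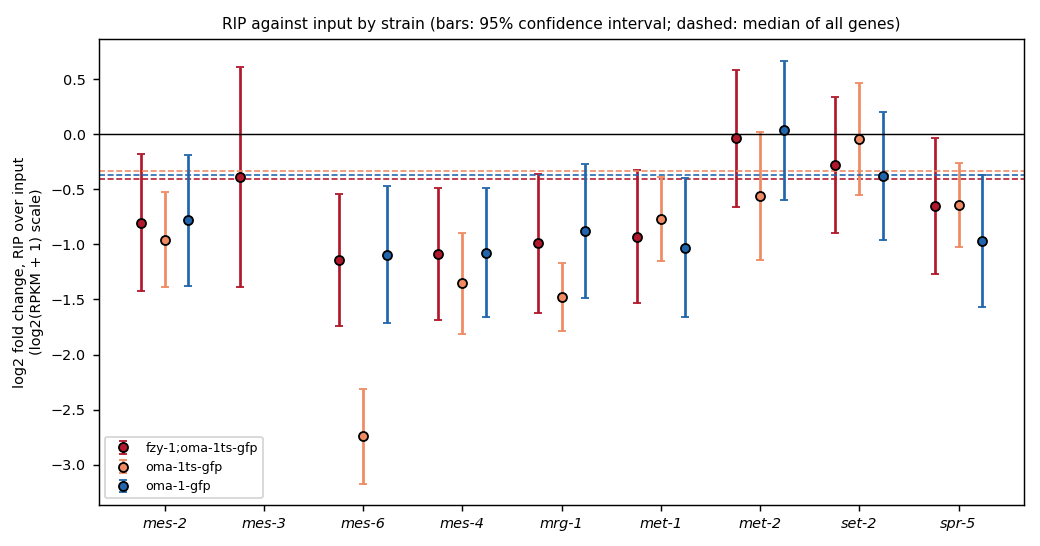
Log2 fold change of RIP over input (y axis) for each gene in the 3 strains, with bars for the 95% confidence interval and dashed lines for the median of all genes in each strain. *mes-6* in oma-1ts-gfp, at -2.74, lies below every other value, while *met-2* and *set-2* lie above the medians in 2 of the 3 strains each and *mes-3* was tested in the *fzy-1* strain only.

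*mrg-1*, the most abundant, had 44.6 and 49.6 RPKM in RIP and 93.9 and 94.9 RPKM in input of the *fzy-1* strain. In oma-1ts-gfp it had 23.0 and 26.6 RPKM in RIP and 74.2 and 67.6 RPKM in input, and in oma-1-gfp 48.2 and 38.2 RPKM in RIP and 79.1 and 80.5 RPKM in input. Its RIP level was thus between 35.0% and 54.2% of its input, with no overlap in any strain. The adjusted p by limma was 0.0218, 0.000137 and 0.0302 in these 3 strains. This was the order of RIP and input for most members.

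Without centring, the H3K36 methyltransferase genes *mes-4* and *met-1* and the Polycomb gene *mes-2* were lower in RIP in all 3 strains. With libraries centred on their median gene, none of them passed in the *fzy-1* strain. *mes-4* had 11.2 and 9.75 RPKM in RIP and 22.9 and 23.8 RPKM in input of the *fzy-1* strain, 5.36 and 7.58 RPKM in RIP and 18.8 and 16.98 RPKM in input of oma-1ts-gfp, and 8.96 and 9.32 RPKM in RIP and 20.5 and 20.2 RPKM in input of oma-1-gfp. RIP lay far from input in each strain, with log2 fold changes of -1.09, -1.35 and -1.07 (adjusted p = 0.0122, 0.00117 and 0.0118 by limma). *mes-2* had 8.98 and 7.83 RPKM in RIP and 17.2 and 13.7 RPKM in input of the *fzy-1* strain, 4.53 and 4.33 RPKM in RIP and 9.61 and 9.48 RPKM in input of oma-1ts-gfp, and 7.30 and 7.54 RPKM in RIP and 13.6 and 13.3 RPKM in input of oma-1-gfp. Its log2 fold changes were -0.80, -0.96 and -0.78 (adjusted p = 0.0444, 0.00394 and 0.0412). *met-1* had 8.88 and 7.60 RPKM in RIP and 16.8 and 16.3 RPKM in input of the *fzy-1* strain, 8.35 and 8.51 RPKM in RIP and 14.01 and 16.2 RPKM in input of oma-1ts-gfp, and 8.30 and 6.52 RPKM in RIP and 17.98 and 14.3 RPKM in input of oma-1-gfp. The RIP level of *met-1* was thus nearly the same in the 3 strains, with log2 fold changes of -0.93, -0.77 and -1.03 (adjusted p = 0.0236, 0.00611 and 0.0194).

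*spr-5* had 9.44 and 8.33 RPKM in RIP and 16.02 and 13.1 RPKM in input of the *fzy-1* strain, 9.09 and 11.1 RPKM in RIP and 16.6 and 15.9 RPKM in input of oma-1ts-gfp, and 6.04 and 6.75 RPKM in RIP and 14.2 and 12.8 RPKM in input of oma-1-gfp. RIP and input did not overlap in any strain. *spr-5* was lower in oma-1ts-gfp (-0.64) and oma-1-gfp (-0.97), and in the *fzy-1* strain its value of -0.65 missed the threshold (adjusted p = 0.0864 by limma).

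*met-2* and *set-2* did not pass in any strain. *met-2* had 9.17 and 7.96 RPKM in RIP and 7.92 and 9.76 RPKM in input of the *fzy-1* strain, 3.02 and 5.03 RPKM in RIP and 6.42 and 6.09 RPKM in input of oma-1ts-gfp, and 8.05 and 5.998 RPKM in RIP and 6.51 and 7.05 RPKM in input of oma-1-gfp. Its log2 fold changes were -0.04, -0.56 and 0.03, and those of *set-2* were -0.28, -0.05 and -0.38. RIP and input of *met-2* overlapped in the *fzy-1* strain and in oma-1-gfp. *set-2* had 4.19 and 3.90 RPKM in RIP and 4.80 and 5.44 RPKM in input of the *fzy-1* strain, 3.57 and 4.26 RPKM in RIP and 3.78 and 4.37 RPKM in input of oma-1ts-gfp, and 2.38 and 2.45 RPKM in RIP and 3.32 and 3.55 RPKM in input of oma-1-gfp. The 2 kinds of library overlapped for *set-2* in oma-1ts-gfp only.

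*mes-3* was near the lower limit of detection in adults. It had between 0.0837 and 1.41 RPKM in RIP and between 0.384 and 2.77 RPKM in input, the lowest of the 9 in every adult library. It passed the minimum of 1 RPKM in 2 libraries only in the *fzy-1* strain, where its log2 fold change was -0.39 with a 95% confidence interval from -1.39 to 0.61. In embryos, whose tables were made separately, *mes-3* had 62.4 and 62.3 RPKM in N2 when computed from total counts and exon length, above *mes-2* at 22.0 and 20.05 RPKM.

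**Figure D4:**
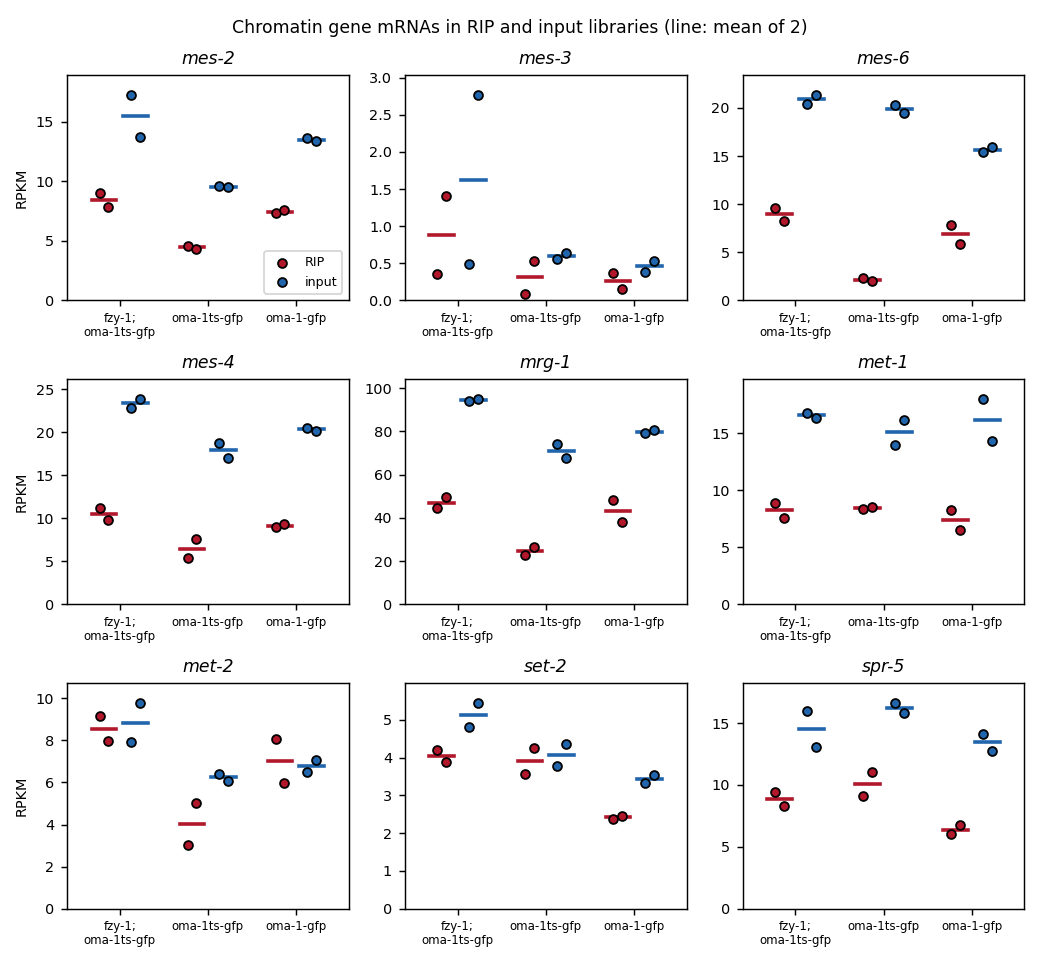
RPKM (y axis, from 0) of the 9 genes in RIP and input libraries of the 3 strains, a point per library and a line for the mean of 2. Both RIP points lie below both input points for 7 of the genes tested in each strain, and *mes-3* stays at or under 2.77 RPKM in all libraries.

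The Polycomb gene *mes-6* was the only member whose enrichment differed between strains past an adjusted p of 0.05. Its RIP level was 2.26 and 1.99 RPKM in oma-1ts-gfp, against 7.85 and 5.89 RPKM in oma-1-gfp, while its input was 20.3 and 19.5 RPKM in oma-1ts-gfp, against 15.4 and 15.97 RPKM in oma-1-gfp. In the *fzy-1* strain, which carries the same OMA-1 change as oma-1ts-gfp, RIP was 9.62 and 8.27 RPKM and input 20.4 and 21.3 RPKM. RIP was thus 10.7% of input in oma-1ts-gfp, against 42.8% in the *fzy-1* strain and 43.8% in oma-1-gfp. The difference of log2 fold changes, oma-1ts-gfp minus oma-1-gfp, was -1.65 (SE 0.28, adjusted p = 0.00728 by limma), where 1 of 9 members had a lower enrichment, against 3.87% of all genes, with 1.27% higher (3.46% and 2.01% with libraries centred). The *fzy-1* strain minus oma-1ts-gfp gave 1.603 (SE 0.28, adjusted p = 0.00564), where 1 of 9 members was higher, against 5.96% of all genes, with 3.74% lower. Both comparisons share the libraries of oma-1ts-gfp. Between the *fzy-1* strain and oma-1-gfp the difference was -0.05 (95% confidence interval -0.66 to 0.57), and 0 members passed by limma, with 0 at an unadjusted p under 0.05. Of all genes 0.00852% were higher and 0.0767% lower there. No other member passed in any of the 3 differences. *mrg-1*, at -0.60 in oma-1ts-gfp minus oma-1-gfp, had an adjusted p of 0.224 by limma and an unadjusted p of 0.0437.

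Values that move with this result were measured. C09G4.4, which shares exon bases with *mes-6*, had 113 and 141 RPKM in RIP and 102 and 105 RPKM in input of oma-1ts-gfp, against 169 and 98.3 RPKM in RIP and 116 and 87.2 RPKM in input of oma-1-gfp, so its mean RIP level was not below input in either. The 8 muscle markers, all detected in every library, also differed by strain, with a summed RIP level of 271 to 286 RPKM in oma-1ts-gfp, against 2819 to 3574 RPKM in the *fzy-1* strain and 2503 to 2850 RPKM in oma-1-gfp. Their input level was 841 to 858 RPKM in oma-1ts-gfp, against 952 to 1124 RPKM in the *fzy-1* strain and 1025 to 1112 RPKM in oma-1-gfp. The 8 germline markers summed to 675 to 754 RPKM in RIP of oma-1ts-gfp, against 2155 to 2291 RPKM in the *fzy-1* strain and 1535 to 1743 RPKM in oma-1-gfp. The 8 oocyte markers, detected throughout, were closer, with 1049 to 1157 RPKM in RIP of oma-1ts-gfp, against 1355 to 1571 RPKM in the *fzy-1* strain and 1284 to 1490 RPKM in oma-1-gfp. Intestine and cuticle markers were also lower in RIP of oma-1ts-gfp than of both other strains. The 8 neuron markers were not, with 153 to 163 RPKM, against 143 to 154 RPKM in the *fzy-1* strain and 77.1 to 100 RPKM in oma-1-gfp. Sperm markers had 13.4 to 19.8 RPKM, against 36.6 to 43.0 and 7.13 to 14.5 RPKM. Such RIP sums depend on which mRNAs were pulled down as well as on tissue content. The part of these values in the *mes-6* difference was not tested. With each library centred on its median gene, *mes-6* still passed in both comparisons.

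In the inputs alone, no member differed between strains by limma. At an unadjusted p under 0.05 there were 2 members in the *fzy-1* strain against oma-1ts-gfp. There was 1 in the *fzy-1* strain against oma-1-gfp and 1 in oma-1ts-gfp against oma-1-gfp. Of 11736 genes tested, 3115, 1990 and 1967 had such an unadjusted p in these 3 comparisons. The background was 9.94%, 5.1% and 3.43% of all genes higher, and 3.03%, 0.579% and 2.13% lower. With libraries centred, 5.76% were higher and 5.86% lower in the *fzy-1* strain against oma-1ts-gfp, and 3.51% and 1.31% in the *fzy-1* strain against oma-1-gfp. *mes-2* came nearest, with 17.2 and 13.7 RPKM in the *fzy-1* strain, against 9.61 and 9.48 RPKM in oma-1ts-gfp (log2 fold change 0.64, SE 0.19, adjusted p = 0.0506 by limma). These libraries did not overlap. Input markers differed between the same strains, with 964 to 1194 RPKM over the 8 germline markers in the *fzy-1* strain, against 684 to 703 RPKM in oma-1ts-gfp, and 69.0 to 125 RPKM over the 8 sperm markers, of which at least 7 were detected in each library, against 14.9 to 16.98 RPKM, with at least 6 detected. Their part in the *mes-2* value was not tested.

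Other chromatin genes were read from 7 lists with 54 genes, which cover COMPASS, H3K4 demethylation and CoREST, H3K9 methylation and its readers, H3K27 and H3K36 demethylation, other histone methyltransferases, DREAM and synMuv repressors, and MRG-1 partners with acetyltransferases. In oma-1(zu405) against N2 embryos, 30 of the 54 were higher and 12 lower on the TMM scale, where 34.8% and 42.4% of all genes were, with a median log2 fold change of 0.43 beside -0.24 over all genes. By total counts 7 were higher and 35 lower, where 15.6% and 70.3% of all genes were. In the DREAM and synMuv list, 9 of 11 were higher and 1 lower, and in the list of H3K9 methylation and readers, 6 of 9 were higher and 1 lower. By total counts these became 2 and 6, and 2 and 4. On the TMM scale, 6 of 8 other histone methyltransferases were higher and 2 lower, 2 of 7 COMPASS genes higher and 1 lower, and 2 of 7 H3K27 and H3K36 demethylation genes higher and 2 lower. Among H3K4 demethylation and CoREST genes 2 of 6 were higher and 2 lower, and among MRG-1 partners 3 of 6 were higher and 3 lower. The genes with the largest changes were *dpy-30*, a COMPASS subunit (2.89), *hpl-1*, a heterochromatin protein related to HP1 (2.83), *set-30* (-2.76), *spr-1* of the CoREST complex (-2.67) and *set-9* (2.26), with the same directions by total counts. *hpl-1* had 94.2 and 87.5 CPM in oma-1(zu405), against 14.5 and 9.21 CPM in N2. *set-9* and *set-26* are close copies of each other, and how reads that match both were counted is not known. In the double mutant 0 of the 54 passed against either genotype by edgeR.

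In RIP against input, 4 of 53 list genes were higher and 18 lower in the *fzy-1* strain, 9 of 52 higher and 29 lower in oma-1ts-gfp, and 4 of 53 higher and 18 lower in oma-1-gfp. Over all genes, 28.2%, 39.0% and 27.7% were lower in these strains and 11.2%, 15.4% and 11.8% higher. Centred on the median gene, these were 4 and 6, 12 and 18, and 5 and 10. The DREAM and synMuv list had 7 of 11 members lower in each strain, among them *lin-54* (-1.72, -1.99 and -1.95 in the *fzy-1* strain, oma-1ts-gfp and oma-1-gfp), a DNA-binding subunit of DREAM. *mep-1* was lower by -1.63 in oma-1ts-gfp and -1.89 in oma-1-gfp, *lin-53* by -1.88 in the *fzy-1* strain, and *set-26* and *set-9* by -2.23 and -1.83 in oma-1ts-gfp.

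A few list genes stood far on the other side, above all *lsd-1*, a demethylase gene of the same family as *spr-5*. *lsd-1* had 193 and 172 RPKM in RIP and 12.5 and 7.70 RPKM in input of the *fzy-1* strain. In oma-1ts-gfp it had 39.4 and 52.2 RPKM in RIP and 7.26 and 7.67 RPKM in input, and in oma-1-gfp 206 and 220 RPKM in RIP and 13.1 and 11.2 RPKM in input. Its log2 fold changes were 4.08, 2.46 and 4.03, while those of *spr-5* were -0.65, -0.64 and -0.97. *hpl-1* (2.90 and 2.48) and *jmjd-2*, a gene of the Jumonji demethylase family (2.52 and 2.26), were also higher in RIP of the *fzy-1* strain and oma-1-gfp. The enrichment of *lsd-1* and *jmjd-2* was lower in oma-1ts-gfp than in oma-1-gfp, by -1.57 (adjusted p = 0.0187 by limma) and -1.23 (adjusted p = 0.0443, and 0.0502 with libraries centred). It was higher in the *fzy-1* strain than in oma-1ts-gfp, by 1.62 (adjusted p = 0.0119) for *lsd-1*, 1.48 (adjusted p = 0.0140) for *jmjd-2* and 1.37 (adjusted p = 0.0336) for *hpl-1*. *lin-37* (-0.95) and *lin-53* (-0.89) were lower in the same comparison. Of the inputs, *jmjd-3.1* was lower in oma-1ts-gfp than in oma-1-gfp (-0.94), and *jmjd-3.1* (1.26) and *cbp-1* (1.12) were higher in the *fzy-1* strain than in oma-1ts-gfp.

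**Figure D5:**
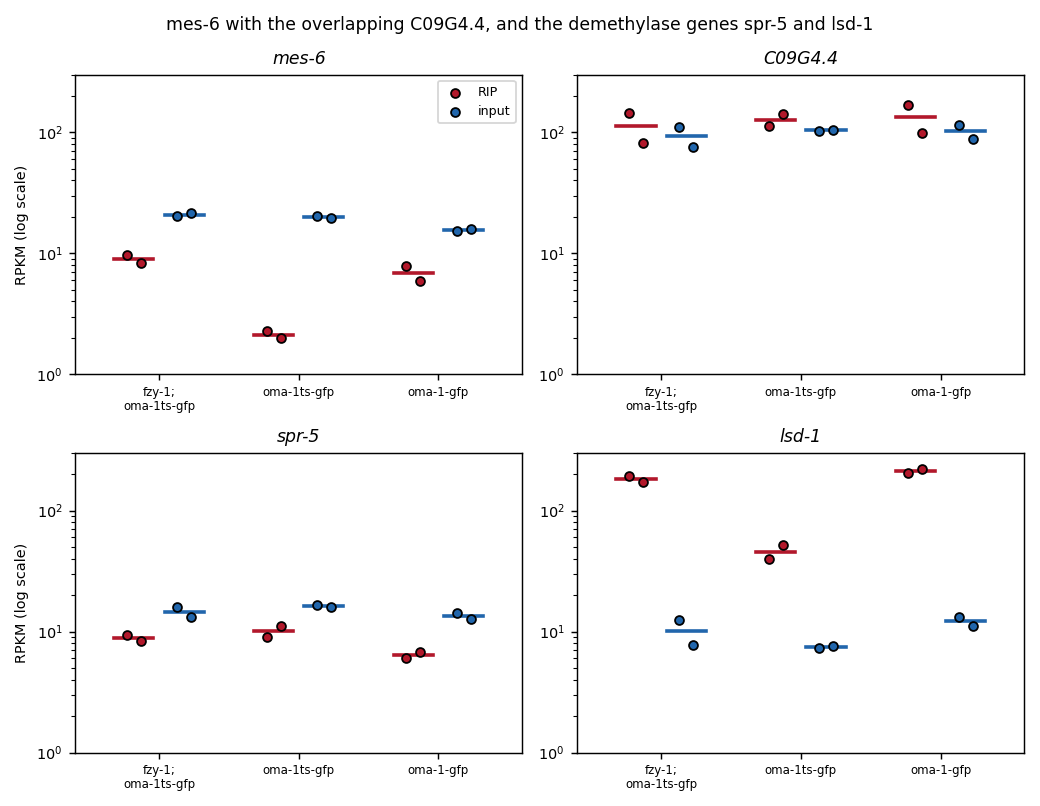
RPKM (y axis, log scale) of *mes-6*, the overlapping C09G4.4, *spr-5* and *lsd-1* in RIP and input libraries of the 3 strains, a point per library and a line for the mean of 2. *mes-6* in RIP drops to 2.26 and 1.99 in oma-1ts-gfp where C09G4.4 stays at 113 and 141, and *lsd-1* lies above its input where *spr-5* lies below it.

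The genes whose pattern over the 12 RIP and input libraries was most like the mean of *mes-2*, *mes-3* and *mes-6* were *rga-3*, R11D1.1, *npp-19*, *ssl-1* and *npp-22*, with root mean square differences of log2(RPKM + 1) of 0.101, 0.102, 0.137, 0.137 and 0.143, among 7049 genes with at least 1 RPKM in every library. *mrg-1* ranked 7, *mes-4* 62 and *mes-2* 82 in that order, and *mes-6* 1616. The ranks of *mes-2* and *mes-6* are not independent of the mean, which holds their own values. *mes-3*, at or under 2.77 RPKM in every library, is part of the mean too but fell below the 1 RPKM limit and was not ranked.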

How the data were processed

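The members and gene lists were chosen with earlier results of these data known. Whole read counts per gene were deposited for embryos, made by the authors with the aligner HISAT2 and the counter HTSeq (versions 2.0.5 and 0.6.0 in the submitters' processing notes). For RIP and inputs they deposited RPKM values, on a scale 1000 times larger, which were divided by 1000, a factor inferred from the values. Read depth of the RPKM files is unknown. The deposited germline class of each gene, a text class, was used as a description, and the authors' own fold changes and p-values were not used. The genome build is not given in the sources used here. The genotype of a column follows from the named pair of genotypes of each table, the columns present in both tables being N2. No name ties an embryo column to a numbered replicate, so the 2 columns of each genotype served as unnumbered replicates. Another 32 per-sample columns, not mapped to a sample, were left out.

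Embryo counts were tested with edgeR 4.0.16 (quasi-likelihood, TMM, at least 10 counts in 2 libraries) in R 4.3.3, with a separate fit for each pair of genotypes and DESeq2 1.42.0 as an alternative. RPKM were tested with limma 3.58.1 with an intensity trend on log2(RPKM + 1), for genes with at least 1 RPKM in 2 libraries. RIP against input was fitted per strain, and differences between strains in 1 fit of all 12 libraries. Adjusted p-values are Benjamini-Hochberg over all genes tested, with a threshold of 0.05. The edgeR fits of oma-1(zu405) and of the double mutant against N2 were tested on simulated data. So were the limma fits of RIP against input in oma-1-gfp and of the enrichment difference oma-1ts-gfp minus oma-1-gfp. In each embryo simulation all libraries had the same spread, and all but the changed genes had N2 levels. It thus did not test unequal spread between genotypes or the shift between scales seen here. The other comparisons and the alternative fits were not simulated. Replicates differed beyond sampling noise (chi-square per degree of freedom 389 for the double mutant, 9.5 for oma-1(zu405) and 5.48 for N2), and no RPKM pair held identical values. Alternatives were total-count scaling, other filters and pseudocounts, centring, a replicate block, a single fit and leaving out each library. All 9 members were named, and of the 54 list genes up to 5 per comparison with the largest change past the threshold. Python 3.11.15 with numpy 2.4.6, pandas 2.3.3 and matplotlib 3.10.9 served for tables and figures.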

Additional observations from a re-analysis of the deposited data

Results flagged for a closer look

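*mes-6* differed in enrichment between strains by a test of the difference itself. The difference of the log2 fold changes of RIP over input was -1.65 for oma-1ts-gfp minus oma-1-gfp, and 1.6 for the *fzy-1* strain minus oma-1ts-gfp. Both rest on the same 2 RIP libraries of oma-1ts-gfp. Over 12 alternatives each, among them leaving out each library in turn, the first lay between -1.98 and -1.47 with an adjusted p by limma of 0.00546 to 0.0488, and the second between 1.51 and 1.95 with an adjusted p of 0.00440 to 0.0380.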

How the results depend on the processing

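In oma-1(zu405) against N2, total counts gave 1 member higher and 7 lower. A single fit of all embryo libraries gave 0 and 0, with 4 members at an unadjusted p under 0.05. Over all genes that fit also gave 0 and 0, with 5371 of 12520 at an unadjusted p under 0.05. Total counts reversed *mes-2* (-0.11), *mes-4* (-1.15) and *spr-5* (-0.78). Leaving out 1 library gave 2 to 3 higher and 4 lower. In the double mutant against N2, leaving out a library gave 0 to 4 higher and 0 to 4 lower, and against oma-1(zu405) 0 to 4 higher and 0 to 3 lower, where *met-1* and *set-2* passed in opposite directions (0.51 and 0.67 without D1, -0.60 and -1.02 without D3). For all genes, where edgeR called 0 in the double mutant (506 against N2 and 860 against oma-1(zu405) at an unadjusted p under 0.05), DESeq2 gave 373 higher with 15 lower and 23 higher with 2 lower.

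For RIP against input of oma-1-gfp, 1 member was lower with every gene above 0 tested, 2 with libraries centred on their median, and 0 to 6 with a library left out (0 without either input). For oma-1ts-gfp a library left out gave 4 to 7 lower. For the *fzy-1* strain 0 were lower with libraries centred, and 0 to 3 with a library left out (0 without either input). In the inputs of the *fzy-1* strain against oma-1ts-gfp, 1 member (*mes-2*) was higher with every gene above 0 tested (adjusted p = 0.0380 by limma). Against oma-1-gfp, leaving out a library gave 0 to 1 higher, which was *mes-3* without input replicate 1 of the *fzy-1* strain.

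RIP and input libraries share replicate numbers, with 2 per group, and no label says that a number marks a shared batch. With the replicate number as a block, 6 members were lower in RIP in each strain. Over all genes, 3991 of 10849 were lower in the *fzy-1* strain, 3943 of 9761 in oma-1ts-gfp and 3078 of 9743 in oma-1-gfp. With the block, 1 member (*mes-2*, adjusted p = 0.0438 by limma) was higher in the inputs of the *fzy-1* strain against oma-1ts-gfp. So were 1372 of 11736 genes. No paired analysis of the embryos was possible because the embryo columns carry no replicate number. Of 999 member values under the alternatives, 837 kept their direction and their side of the threshold, 76 changed sign but passed in neither setting, 55 no longer passed, 26 passed newly and 5 reversed. Counts over all genes also moved: lower in RIP were 3055, 3805 and 2698 genes in the *fzy-1* strain, oma-1ts-gfp and oma-1-gfp, and 1320, 2302 and 1487 with libraries centred. With 2 libraries per group and unknown depth of the RPKM files, small differences were not detectable.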
